A study of Homo sapiens with 6 samples.

Results

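CXCL1, CXCL2, CXCL3, CXCL5, CXCL6, CXCL8 and PPBP are chemokine genes of the human chromosome band 4q13 whose proteins draw neutrophils through the receptor CXCR2. These 7 genes, of 57396 in the count table, were chosen by name as the CXCR2 ligands of that cluster. They were put together because earlier results of the same 6 libraries had shown them higher after S-adenosylmethionine (SAM), so the difference between SAM and control that follows is a description of the chosen genes, and no test of it is given. All cells were PC-3, a line grown from a bone metastasis of prostate carcinoma. Libraries SAM 1, SAM 2 and SAM 3 came from PC-3 cells kept for 5 days with 160 µM SAM, and libraries control 1, control 2 and control 3 from PC-3 cells given PBS. These are the terms of the sample labels. The methods text of the paper names another dose, RNA kit, sequencer and vehicle. Nothing says that the 3 libraries of a group came from separate cultures, so every error given here measures the spread between libraries, which may be technical, in a single cell line.

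Chemokines are small secreted proteins that guide leukocytes along a gradient. The 7 members carry a glutamate-leucine-arginine motif ahead of their first cysteines, which lets them bind CXCR2 on neutrophils, and they are held on tissue by heparan sulphate chains. In epithelial cells the transcription of the members other than PPBP is known to follow interleukin-1 and tumour necrosis factor through the factor NF-kB. The mRNAs of members such as CXCL1 and CXCL8 are short-lived. SAM is the methyl donor of the cell, used for the methylation of DNA, RNA, histones and small molecules.

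The bases just before each start of transcription are shown because they hold the stretch of DNA that most members share. All 7 genes matched a RefSeq promoter on GRCh38.p14, and the last 150 bases before the RefSeq start are printed 5′ to 3′ on the strand of the gene. Only for CXCL1 does that start meet the limit of the gene in the count table. The stretch of CXCL6 lies inside the gene as the table places it. Those of CXCL2, CXCL3, CXCL5, CXCL8 and PPBP overlap their genes in part, so distances hold for the RefSeq starts only. Capitals mark every match to the NF-kB consensus, known as the kappa B site, on either strand, also where its first base may be any base. The stretches lie at chr4:73869243-73869392 for CXCL1, chr4:74099196-74099345 for CXCL2, chr4:74038690-74038839 for CXCL3, chr4:73998678-73998827 for CXCL5, chr4:73836528-73836677 for CXCL6, chr4:73740419-73740568 for CXCL8 and chr4:73988191-73988340 for PPBP. CXCL1, CXCL6 and CXCL8 are on the plus strand, and CXCL2, CXCL3, CXCL5 and PPBP on the minus strand.
CXCL1: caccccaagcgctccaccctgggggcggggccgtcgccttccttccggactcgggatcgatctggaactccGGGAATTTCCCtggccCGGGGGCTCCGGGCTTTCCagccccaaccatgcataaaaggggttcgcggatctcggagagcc
CXCL2: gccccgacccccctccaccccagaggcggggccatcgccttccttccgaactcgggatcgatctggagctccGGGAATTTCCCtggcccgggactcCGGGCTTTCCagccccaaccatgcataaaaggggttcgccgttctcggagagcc
CXCL3: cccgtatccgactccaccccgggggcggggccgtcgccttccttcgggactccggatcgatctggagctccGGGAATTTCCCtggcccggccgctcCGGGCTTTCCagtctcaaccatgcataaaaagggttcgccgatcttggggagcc
CXCL5: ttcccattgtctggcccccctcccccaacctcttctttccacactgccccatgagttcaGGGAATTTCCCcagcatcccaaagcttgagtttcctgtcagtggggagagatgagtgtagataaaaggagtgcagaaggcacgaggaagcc
CXCL6: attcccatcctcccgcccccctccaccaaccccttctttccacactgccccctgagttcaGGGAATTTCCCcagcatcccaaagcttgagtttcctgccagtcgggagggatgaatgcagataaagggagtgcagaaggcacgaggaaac
CXCL8: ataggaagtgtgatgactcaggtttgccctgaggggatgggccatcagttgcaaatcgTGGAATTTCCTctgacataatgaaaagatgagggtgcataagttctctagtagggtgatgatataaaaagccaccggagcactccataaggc
PPBP: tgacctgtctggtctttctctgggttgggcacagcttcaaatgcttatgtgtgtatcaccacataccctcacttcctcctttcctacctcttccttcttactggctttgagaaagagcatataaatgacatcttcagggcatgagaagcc

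The run GGGAATTTCC was present in 5 of the 7 promoters, those of CXCL1, CXCL2, CXCL3, CXCL5 and CXCL6, when 250 bases before the start were searched on both strands. It was present in 43 of all 27305 promoters of the same length, or 0.157%. Its first base lay 79 bases before the RefSeq start in CXCL1 and CXCL3, 78 in CXCL2, 91 in CXCL5 and 90 in CXCL6. CXCL8 held the closely related match in capitals, which starts 92 bases before its start and counts only when the first base of the consensus may be any base. That looser consensus was present in 6 of the 7 promoters and in 27.7% of all promoters, and PPBP held no match to it in this window. The strict consensus was present in 5 of the 7 and in 9.57% of all. The match GGGAATTTCC also reads as the consensus on the other strand when shifted by 1 base, so both strands mark the same site. A match is a run of letters and no measure of binding.

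Other motifs were less shared. TATAAA was present in CXCL8 and PPBP, against 11.1% of all promoters. The AP-1 letters TGANTCA were present in CXCL8 only among the 7, against 6.60% of all promoters, and the C/EBP letters TTNCNNAA in CXCL2 and PPBP, against 33.6%. Near matches were not counted, and CXCL8 holds TTGCAAAT beside its kappa B match, which differs from the C/EBP letters in the last base only. Aligned over the printed 150 bases, CXCL5 and CXCL6 were 89.4% identical. CXCL1 was 88.7% identical to CXCL2 and 88.1% to CXCL3, and CXCL2 was 86.1% identical to CXCL3. Every other pair lay between 42.8% and 56.4%, so the promoters form 2 families of near copies beside CXCL8 and PPBP.

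The libraries held between 9379258 and 28995160 counts in genes, and SAM 1 was the deepest of all. A count of 3 was worth 0.103 to 0.25 CPM in the SAM libraries and 0.138 to 0.32 CPM in the control libraries. CPM is a gene's count as a share of the library's counts, given in parts per 1e6, with library sizes scaled by TMM, a method that sets most genes level between libraries. Epithelial markers were present in all libraries, with 8 of 8 passing the filter on low counts and a summed level of 3370 to 4220 CPM with SAM and 3930 to 4130 CPM in control. Of these, CDH1, a cadherin gene, was called lower with SAM, at 267 CPM against 365 CPM in control (log2 fold change −0.45, SE 0.11, edgeR adjusted p = 0.0298). The other epithelial markers were not called. The prostate genes KLK2 and KLK3 were at 0 counts in all libraries. SAM 2 and control 1 stood apart by the transcript CTD-2328D6.1, which took 1.56% and 1.18% of their counts, against 0.0324 to 0.0636% in the other libraries.

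All 7 chemokine genes were higher in SAM cells than in control cells, with no overlap between the 3 SAM and the 3 control libraries of any gene. Over all 15312 genes that passed the filter, 17.9% had every SAM library above every control library, and 36.7% had groups that did not overlap in either direction. By edgeR, 5.19% were called higher and 5.24% lower at an adjusted p under 0.05. The chosen genes were 7 of 7 by both counts, which the choice itself fixes. Their median log2 fold change was 1.67, against −0.007 over all tested genes. In the order of log2 fold changes over the 15312 genes, PPBP was number 1, CXCL5 number 8, CXCL6 number 29, CXCL1 number 36, CXCL3 number 42, CXCL2 number 82 and CXCL8 number 85. In bulk RNA, a larger share of producing cells and more RNA per cell cannot be told apart.

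**Figure D1:**
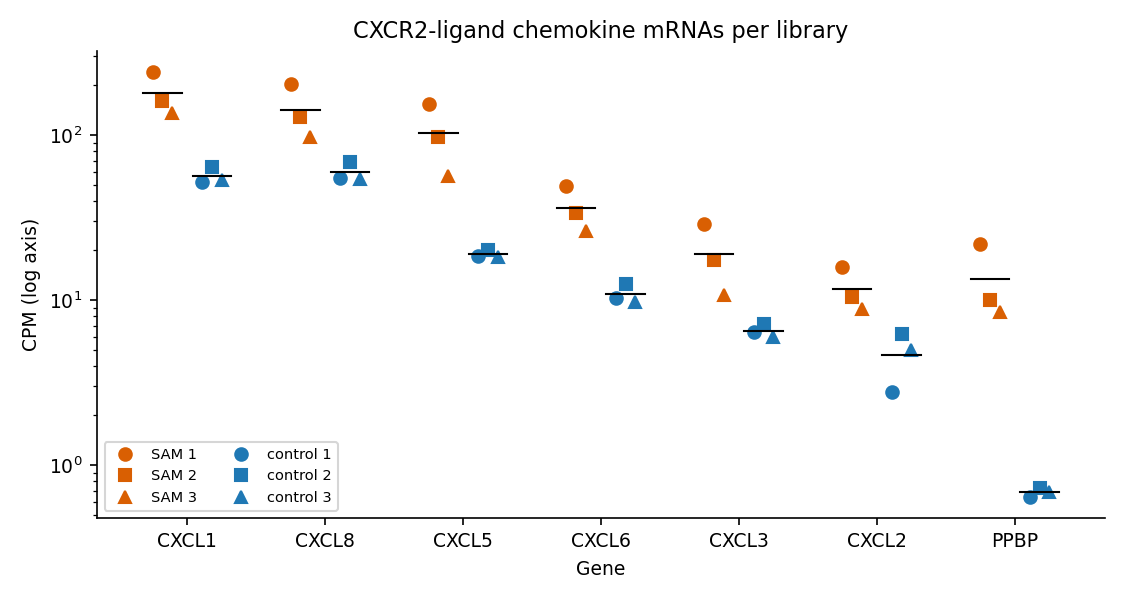
Level of each of the 7 chemokine genes by library, in CPM on a log axis, with SAM libraries left of control libraries. Points are libraries and bars the group means. All 3 SAM points of every gene sit above its 3 control points, by the widest gap in PPBP (lowest SAM 8.45 CPM, highest control 0.727 CPM).

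CXCL1, CXCL2 and CXCL3 are the growth-regulated oncogene (GRO) chemokines, close copies of each other, and CXCL1 was first described as a growth-stimulating activity of melanoma cells. CXCL1 (ENSG00000163739, chr4:73869393-73871242) had 241, 161 and 135 CPM in SAM 1, 2 and 3, against 51.6, 64.2 and 53.5 CPM in control 1, 2 and 3. It averaged 179 ± 55.2 CPM with SAM and 56.4 ± 6.78 CPM in control (SD, n = 3 each), a log2 fold change of 1.67 (SE 0.20). All 3 SAM libraries lay above the controls, and the lowest was 2.11 times the highest control.

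CXCL2 (ENSG00000081041, chr4:74097035-74099293), known also as macrophage inflammatory protein 2-alpha, had 15.8, 10.4 and 8.85 CPM in SAM 1, 2 and 3, against 2.79, 6.27 and 4.95 CPM in the controls. Its control libraries were the most spread of the 7 genes, with the highest 2.25 times the lowest, and control 1 rested on 26 counts. The log2 fold change was 1.28 (SE 0.28). CXCL3 (ENSG00000163734, chr4:74036589-74038807) had 28.8, 17.6 and 10.8 CPM with SAM, against 6.44, 7.13 and 5.97 CPM in control, a log2 fold change of 1.57 (SE 0.30). For both genes the lowest SAM library was near the controls, at 1.41 times the highest control library for CXCL2 and 1.51 times for CXCL3.

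The 3 GRO genes share sequence, and reads from shared stretches can be dropped or misplaced in counting. Of the windows of 50 bases in the canonical mRNA, 5.33% were shared with another member for CXCL1, 10.1% for CXCL2 and 5.26% for CXCL3, and none for the other 4 genes. With the counts of the 3 genes summed, the log2 fold change was 1.63. CXCL1 held most of that sum, with 13934 counts over all libraries against 981 for CXCL2 and 1545 for CXCL3. The summed value therefore says little about misplaced reads in CXCL2 or CXCL3.

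CXCL5 and CXCL6 form the other pair of near copies, and CXCL5 is known as a neutrophil-activating peptide of epithelial cells. CXCL5 (ENSG00000163735, chr4:73995642-73998779) had 155, 97.9 and 56.7 CPM in SAM 1, 2 and 3, against 18.6, 20.1 and 18.2 CPM in the controls. The SAM libraries differed by 2.73 times, the widest spread of the 7 genes, while the controls differed by 1.10 times. The lowest of the SAM libraries was still 2.83 times the highest control, and the log2 fold change was 2.45 (SE 0.30).

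CXCL6 (ENSG00000124875, chr4:73836497-73849064), a granulocyte chemotactic protein that also binds CXCR1, had 49.1, 33.5 and 26.3 CPM with SAM, against 10.3, 12.5 and 9.70 CPM in control. The log2 fold change was 1.75 (SE 0.22). The mRNAs of the pair shared no window of 50 bases with each other or with the other members. In GENCODE release 44, an antisense long non-coding gene, ENSG00000287037, overlaps CXCL5, and no source at hand says whether reads were counted by strand. The pseudogene PPBPP1 overlaps CXCL6 on the same strand and had 0 counts in all libraries. Whether reads in that overlap were dropped was not tested.

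CXCL8 (ENSG00000169429, chr4:73740506-73743716) encodes interleukin-8, which binds CXCR1 as well as CXCR2. It had 203, 128 and 96.8 CPM in SAM 1, 2 and 3, against 55.2, 69.0 and 54.4 CPM in control 1, 2 and 3. Its log2 fold change of 1.26 (SE 0.23) was the lowest of the 7 genes. The lowest SAM library was 1.40 times the highest control library, also the smallest gap of the 7.

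PPBP (ENSG00000163736, chr4:73987038-73988197) encodes pro-platelet basic protein, which platelets store in their granules and which is cut to a CXCR2-binding peptide. It was counted 633, 118 and 128 times in SAM 1, 2 and 3, against 6, 16 and 14 times in control 1, 2 and 3. These counts are 21.8, 9.98 and 8.45 CPM with SAM, against 0.644, 0.727 and 0.686 CPM in control. The lowest SAM library was thus 11.6 times the highest control library, and the log2 fold change was 4.29 (SE 0.43). A readthrough gene of GENCODE release 44 that joins PF4 and PPBP, ENSG00000288796, overlaps PPBP and was not counted in the table used here.

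PPBP is a defining gene of platelets, so the other platelet markers were read beside it. PF4, whose gene lies next to PPBP and whose protein is stored with it, had 4, 4 and 1 counts with SAM and 0, 1 and 2 counts in control. GP9, GP1BB and PF4V1 were at 0 in all libraries, and 9 of the 12 platelet markers averaged under 1 CPM. The summed level of the list was 7.27 to 8.03 CPM with SAM and 9.22 to 10.1 CPM in control. Most of that gap came from ITGB3, an integrin subunit, with 1.82 CPM with SAM and 3.62 CPM in control (log2 fold change −0.98, SE 0.19, edgeR adjusted p = 0.0169). GP1BA and ITGA2B, the other tested markers, had log2 fold changes of −0.18 (SE 0.27) and −0.14 (SE 0.23) and were not called. PF4 was too low to test, and its mean was 0.181 CPM with SAM and 0.0478 CPM in control.

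Leukocyte markers were low as well. Of 12 genes, 11 averaged under 1 CPM over all libraries, and the neutrophil genes CSF3R, ELANE and MPO were at 0 in all libraries. The summed level was 39.5 to 53.1 CPM with SAM and 65.8 to 70.4 CPM in control, nearly all of it from ITGB2, an integrin subunit (log2 fold change −0.57, SE 0.12, edgeR adjusted p = 0.0201). CD68, a macrophage marker and the only other one tested, was called in the other direction, with 1.21 CPM with SAM and 0.438 CPM in control (log2 fold change 1.36, SE 0.36, edgeR adjusted p = 0.0439). The receptor gene of the 7 chemokines was near 0, with 1, 0 and 2 counts of CXCR2 in SAM 1, 2 and 3 and 0 in each control library. CXCR1 had 2, 1 and 1 counts with SAM and 2, 0 and 1 in control, and the scavenging receptor gene ACKR1 had 0 counts in every library. At these depths a count of 0 allows up to 0.32 CPM in the shallowest library, for counting error only.

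The 3 SAM libraries kept 1 order in all members. SAM 1 was the highest and SAM 3 the lowest SAM library in 7 of 7 genes, and control 2 was the highest control in 7 of 7. The order SAM 1 over SAM 2 over SAM 3 was found in 15.3% of all tested genes and in 18.2% of those called higher, and control 2 was the highest control in 36.5% and 50.2%. SAM 1 and control 2 are also the deepest libraries of their groups, while SAM 2 is the shallowest with SAM and the middle one in level. The part of depth in the order was not tested.

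Every difference was smaller without SAM 1. Without SAM 1 the ratio of mean CPM in SAM over control was 2.63 for CXCL1, 2.06 for CXCL2, 2.18 for CXCL3, 4.08 for CXCL5, 2.76 for CXCL6, 1.89 for CXCL8 and 13.4 for PPBP. With all libraries the same ratio of mean CPM was 3.17, 2.5, 2.92, 5.45, 3.35, 2.4 and 19.6 in the same gene order. All 7 genes stayed higher with SAM in every leave-one-out fit. Their log2 fold changes then ranged from 0.91 for CXCL8 without SAM 1 to 4.56 for PPBP without SAM 3.

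**Figure D2:**
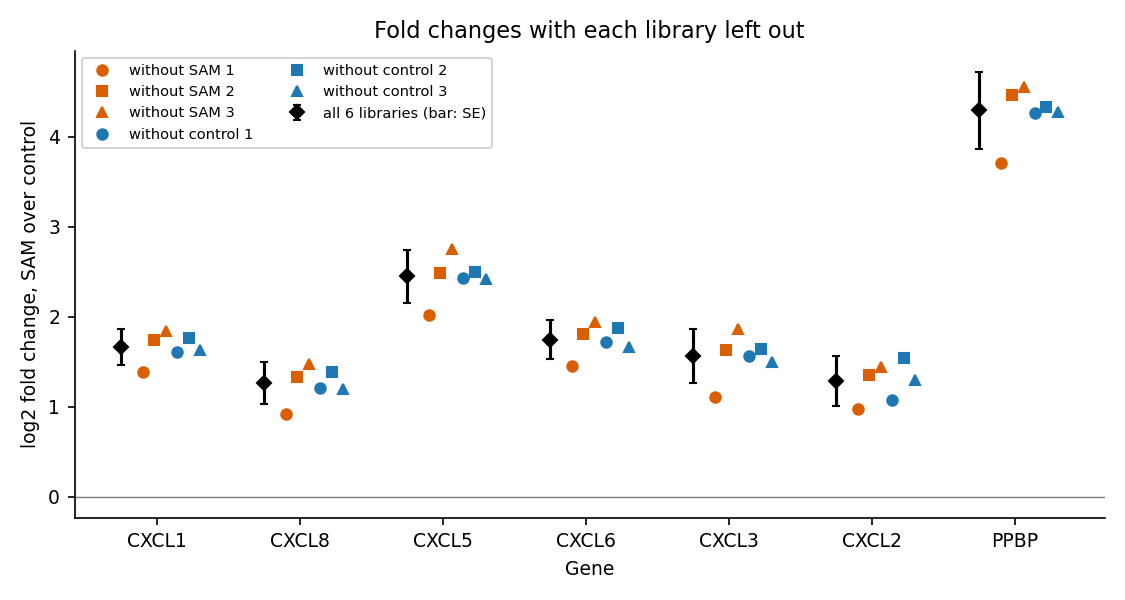
Log2 fold change of SAM over control for each of the 7 chemokine genes with all libraries and with each library left out in turn. The lowest value of every gene is the one without SAM 1, and all values lie above 0.

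SAM 3 also differed in base composition, since its counts moved by 0.121 log2 units for each 10 points of GC in the mRNA, against −0.059 to −0.001 in the other libraries. For each doubling of transcript length they moved by −0.112 log2 units in SAM 3, against −0.048 to 0.065 in the other libraries. The members have between 32.5% GC (CXCL8) and 50.5% GC (CXCL3) in their mRNAs, and the median tested gene has 48.1%. With a trend on GC and length removed from each library, an alternative chosen after the data were seen, the log2 fold changes ran from 1.18 for CXCL2 to 4.23 for PPBP. CXCL5 and CXCL8 had 2.45 and 1.26 both with and without that step.

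Summed, the 7 genes took 0.0715%, 0.0451% and 0.0336% of all counts in SAM 1, 2 and 3, against 0.0145%, 0.0182% and 0.0151% in control 1, 2 and 3. The 95% Wilson intervals, which cover counting error only, were 0.0327 to 0.0345% for the lowest SAM library and 0.0176 to 0.0188% for the highest control library. These pools were made of 5196 to 20724 counts with SAM and of 1357 to 3961 counts in control, so the counting error was small beside the spread between libraries.

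The members' parts of the pool were not the same in both groups. CXCL8 made up 28.4%, 28.0% and 28.2% of the summed CPM in SAM 1, 2 and 3, against 38%, 38.3% and 36.9% in the controls. CXCL5 made up 21.7%, 21.3% and 16.5% with SAM, against 12.7%, 11.2% and 12.3% in control. PPBP made up 3.05%, 2.18% and 2.46% with SAM, against 0.442%, 0.404% and 0.465% in control.

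The 3 libraries of a group did not overlap with those of the other for these 3 genes. CXCL1 held nearly the same part in both groups, with 36.1 ± 2.94% with SAM and 35.8 ± 0.444% in control (SD, n = 3 each). CXCL6 made up 7.28 ± 0.392% with SAM and 6.87 ± 0.259% in control, and CXCL3 made up 3.67 ± 0.469% and 4.15 ± 0.242%.

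**Figure D3:**
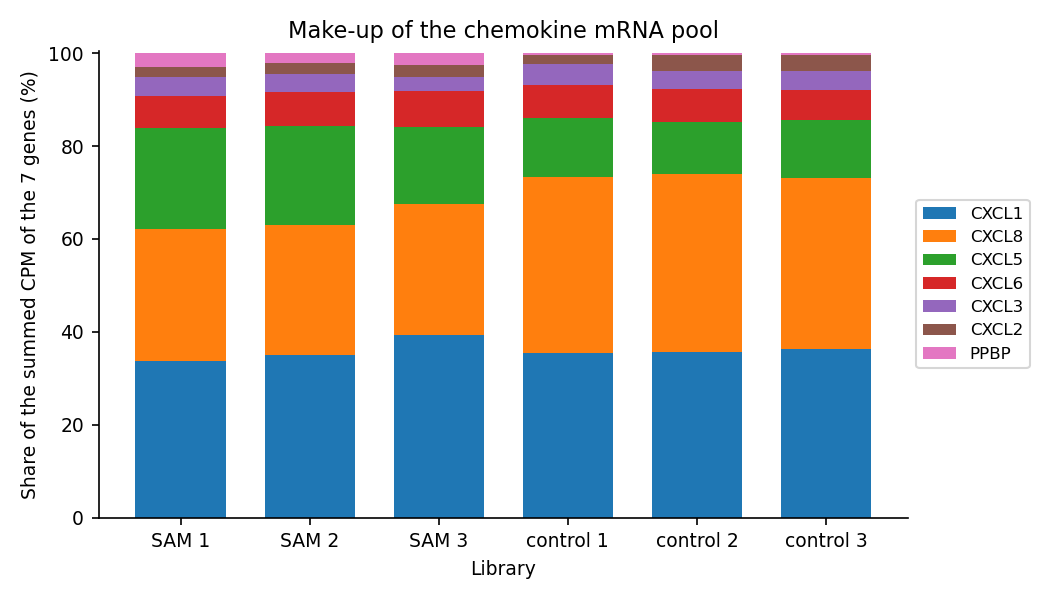
Part of the summed CPM of the 7 chemokine genes that each gene made up in each library, in percent, with the 3 SAM libraries left of the 3 control libraries. CXCL8 is at 28.0 to 28.4% with SAM and 36.9 to 38.3% in control, and CXCL5 is at 16.5 to 21.7% with SAM and 11.2 to 12.7% in control.

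Levels can be compared between genes only per length, so CPM were divided by the length of the canonical mRNA in kilobases (kb). With SAM the order was CXCL1 (152.5 ± 47.0 CPM per kb), CXCL8 (86.9 ± 33.1), CXCL5 (42.3 ± 20.2), CXCL6 (23.6 ± 7.59), CXCL3 (17.7 ± 8.46), CXCL2 (10.5 ± 3.28) and PPBP (10.3 ± 5.59), each as a level with its SD over 3 libraries. In control the order was the same, with 48.0 ± 5.77 CPM per kb for CXCL1, 36.2 ± 5.00 for CXCL8, 7.77 ± 0.413 for CXCL5, 7.05 ± 0.973 for CXCL6, 6.06 ± 0.541 for CXCL3, 4.18 ± 1.57 for CXCL2 and 0.524 ± 0.0318 for PPBP. With SAM the ranges of all neighbours in this order overlapped, but within each SAM library the order held for every neighbouring pair except CXCL2 over PPBP, where it held in 2 of 3. In control the ranges were apart for CXCL1 over CXCL8, CXCL8 over CXCL5 and CXCL2 over PPBP, and overlapped for the other neighbours, and the order held in 3 of 3 control libraries for each pair. With the transcript lengths of the deposited table in place of the canonical mRNA, PPBP came ahead of CXCL3 and CXCL2 with SAM.

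The 7 genes lie within 358.8 kb, from CXCL8 to CXCL2. Counted from the lower end of CXCL8, CXCL6 lies at 96.0 kb, CXCL1 at 128.9 kb, PPBP at 246.5 kb, CXCL5 at 255.1 kb, CXCL3 at 296.1 kb and CXCL2 at 356.5 kb. The largest log2 fold changes, those of PPBP and CXCL5, belonged to adjoining members in the middle of the cluster. No other gene between the outer members passed the filter on low counts, and PF4, PF4V1 and 7 further genes or pseudogenes there had between 0 and 12 counts in all.

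Within 500 kb on either side, 7 non-member genes passed the filter and none was called by edgeR at an adjusted p under 0.05. At an unadjusted p under 0.05, 1 was higher and 2 were lower, DESeq2 called 1 lower and limma-voom 0. RASSF6, a Ras-association domain gene that bounds the cluster near CXCL8, had a log2 fold change of −0.44 (SE 0.13, edgeR adjusted p = 0.0541), and was called lower by DESeq2. MTHFD2L, a mitochondrial folate enzyme gene next to CXCL2, had 0.39 (SE 0.15, edgeR adjusted p = 0.12).

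The growth factor genes beyond MTHFD2L encode ligands of the epidermal growth factor receptor. Their log2 fold changes were 0.26 (SE 0.26) for EPGN, −0.01 (SE 0.37) for EREG and −0.42 (SE 0.16) for AREG, with edgeR adjusted p of 0.516, 0.986 and 0.111. ANKRD17 had −0.19 (SE 0.19, edgeR adjusted p = 0.53) and AC142293.3 had −0.54 (SE 0.31, edgeR adjusted p = 0.27). The median of the 7 neighbours was −0.19, and ANKRD17, EPGN and EREG changed sign in some of the other settings. Without SAM 3, edgeR called RASSF6 lower and EPGN higher.

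**Figure D4:**
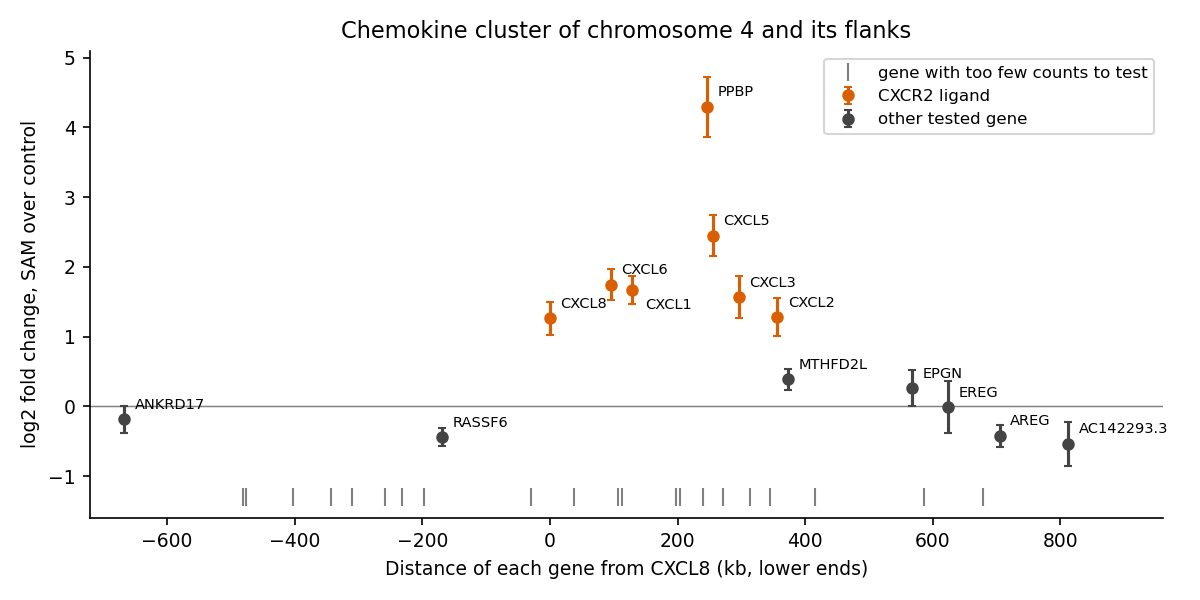
Log2 fold change of SAM over control, with bars of 1 SE, against distance in kb from CXCL8 for the 7 chemokine genes and the 7 tested neighbours within 500 kb. The chemokine genes lie between 1.26 and 4.29 and the neighbours between −0.54 and 0.39.

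The other chemokine genes were few in PC-3 cells, and here and in the following lists calls are by edgeR over all tested genes. Of all tested genes, 5.19% were called higher and 5.24% lower, the shares to set beside the count of each list. Of 10 other CXC chemokine genes, only CXCL16, a membrane-bound ligand of CXCR6, passed the filter. It averaged 101.01 CPM with SAM and 89.9 CPM in control, a log2 fold change of 0.17 (SE 0.10, edgeR adjusted p = 0.288), below the 1.26 of the lowest member. Of 31 CC, XC and CX3C chemokine genes, 19 were in the table, 3 passed the filter and 0 were called by edgeR, DESeq2 or limma-voom, with 0 also at an unadjusted p under 0.05. CCL26 did not pass the filter, with 21, 5 and 13 counts in SAM 1, 2 and 3 and 0, 1 and 2 in control 1, 2 and 3. It was called higher with no filter on low counts, and in some of the fits with libraries left out. CCL20, which attracts cells through CCR6 and is another NF-kB target, had 0.77 (SE 0.37, edgeR adjusted p = 0.191), and CCL28 had −0.18. Of 23 chemokine receptors, 7 passed the filter and 0 were called by edgeR, DESeq2 or limma-voom, with 1 higher at an unadjusted p under 0.05. The receptors with the highest levels were CCRL2, at 13.3 CPM with SAM and 11.4 CPM in control, and ACKR2, at 10.02 and 10.53 CPM.

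Genes of the NF-kB system were read beside the kappa B sites printed above. Of 17 tested NF-kB subunits, kinases and inhibitors, edgeR called 0, with 2 higher and 5 lower at an unadjusted p under 0.05, and their median log2 fold change was −0.07. DESeq2 called 1 higher and 1 lower (TNFAIP3 and TAB2), and limma-voom 1 lower. TNFAIP3 averaged 55.1 CPM with SAM and 36.4 CPM in control, with groups that overlapped (log2 fold change 0.60, SE 0.19, edgeR adjusted p = 0.0675). TAB2 averaged 85.0 CPM with SAM and 109 CPM in control (log2 fold change −0.37, SE 0.11, edgeR adjusted p = 0.0615). RELA, the main activating subunit, averaged 128 CPM with SAM and 115 CPM in control, a log2 fold change of 0.16 (SE 0.10, edgeR adjusted p = 0.33). TNIP1, a binding partner of the inhibitor TNFAIP3, averaged 300.5 CPM with SAM and 304.9 CPM in control.

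Other genes with the letters GGGAATTTCC in their promoter were counted as well, after the values were seen. Of the genes outside the 7 that hold it, 18 were tested, and edgeR called 0 higher and 1 lower, with a median log2 fold change of −0.13. The one called was OPTN, an autophagy receptor gene, with a log2 fold change of −0.32 (SE 0.08). The same 18 genes include NFKBIA, NFKB1, REL and NFKBIZ, known NF-kB targets. NFKBIA, which encodes the classical NF-kB inhibitor, averaged 87.1 CPM with SAM and 102.5 CPM in control, a log2 fold change of −0.24 (SE 0.10). Over the 1263 tested non-member genes with the strict consensus, 72 were called higher and 74 lower, 11.6% in all against 10.4% of all tested genes. All these values are mRNA levels, and the part of NF-kB in the chemokine difference was not tested.

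AP-1 and C/EBP factors act at chemokine promoters beside NF-kB. Among them 1 of 11 tested genes was higher, 3 were lower and 7 were not called, against 10.4% called of all tested genes. FOSL1, an AP-1 subunit, averaged 403 ± 34.6 CPM with SAM and 236 ± 12.1 CPM in control (log2 fold change 0.78, SE 0.10, edgeR adjusted p = 0.00293), and was called with each library left out. JUNB, another AP-1 subunit, ATF3, a stress-response factor, and CEBPG, a C/EBP protein, were lower with SAM, with log2 fold changes of −0.34, −0.48 and −0.46. These 3 calls were lost without SAM 1 and without any one of the controls, with adjusted p up to 0.189, 0.139 and 0.105. JUNB was also lost with no filter on low counts and without control 1 and SAM 2 together.

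Of 16 tested genes of interleukin-1, tumour necrosis factor and interleukin-17 signalling, 2 were higher, 1 lower and 13 not called. The share called over all tested genes was 10.4%. IL1B, the gene of the cytokine interleukin-1 beta, had 502, 491 and 450 CPM in SAM 1, 2 and 3, against 303, 335 and 306 CPM in control 1, 2 and 3. Its groups did not overlap, and its log2 fold change of 0.61 (SE 0.09, edgeR adjusted p = 0.0068) was below that of each member. The IL1B call was lost without control 1 and without control 3, with adjusted p up to 0.0733. IRAK1, a kinase of the interleukin-1 receptor, was higher by 0.43 (SE 0.09, edgeR adjusted p = 0.0172), and its relative IRAK2 was lower, at −0.58 (SE 0.12, edgeR adjusted p = 0.0186). Both were lost without SAM 1 and without any one of the controls (adjusted p up to 0.107 for IRAK1 and 0.103 for IRAK2).

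AU-rich decay factors, which set the lifetime of short-lived mRNAs such as those of CXCL1 and CXCL8, gave no call. Of 14 tested genes, 0 were called by edgeR, DESeq2 or limma-voom, with 1 higher at an unadjusted p under 0.05, and the median log2 fold change was −0.002. KHSRP, a decay-promoting RNA-binding protein, averaged 520 CPM with SAM and 487 CPM in control, and HNRNPD, which binds the same elements, 217 CPM in both.

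Of 19 tested genes that carry the CXCR2 signal inside the cell, 2 were higher and 17 were not called. This was near the 10.4% called over all tested genes, in cells with at most 2 counts of the receptor gene per library. ARRB2, an arrestin of many receptors, had a log2 fold change of 0.47 (SE 0.10, edgeR adjusted p = 0.022), and RGS2, an inhibitor of G-protein signalling, 0.49 (SE 0.12, edgeR adjusted p = 0.0299). Both calls were lost without SAM 1 and without any one of the controls, with adjusted p up to 0.103 and 0.139.

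Proteases and chemokine-modifying enzymes trim the ends of chemokines and change their strength. Of 13 tested, 2 were higher, 1 lower and 10 not called, against 10.4% called over all tested genes. MMP9, a gelatinase known to trim CXCL8, averaged 16.1 ± 1.002 CPM with SAM and 8.04 ± 0.568 CPM in control (log2 fold change 0.99, SE 0.12, edgeR adjusted p = 0.00258), and was called with each library left out. ANPEP, the gene of aminopeptidase N, averaged 683 ± 69.6 CPM with SAM and 445 ± 15.7 CPM in control (log2 fold change 0.62, SE 0.10, edgeR adjusted p = 0.00849). The ANPEP call was lost without control 2 and without control 3 (adjusted p up to 0.0743). ADAM17, which sheds membrane proteins, was lower, at −0.48 (SE 0.13, edgeR adjusted p = 0.0468), and this was lost without SAM 1 and without any one of the controls (adjusted p up to 0.209).

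Proteoglycans present chemokines on the cell surface. Of 11 tested, 1 was higher, 1 lower and 9 were not called, against 10.4% called over all tested genes. SDC1, a heparan sulphate proteoglycan of epithelia, had a log2 fold change of 0.58 (SE 0.09, edgeR adjusted p = 0.00669), lost without control 2 and without control 3 (adjusted p up to 0.0695). GPC6, a glypican, had −0.83 (SE 0.15, edgeR adjusted p = 0.0114), lost without SAM 1 and without any one of the controls (adjusted p up to 0.0747).

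**Figure D5:**
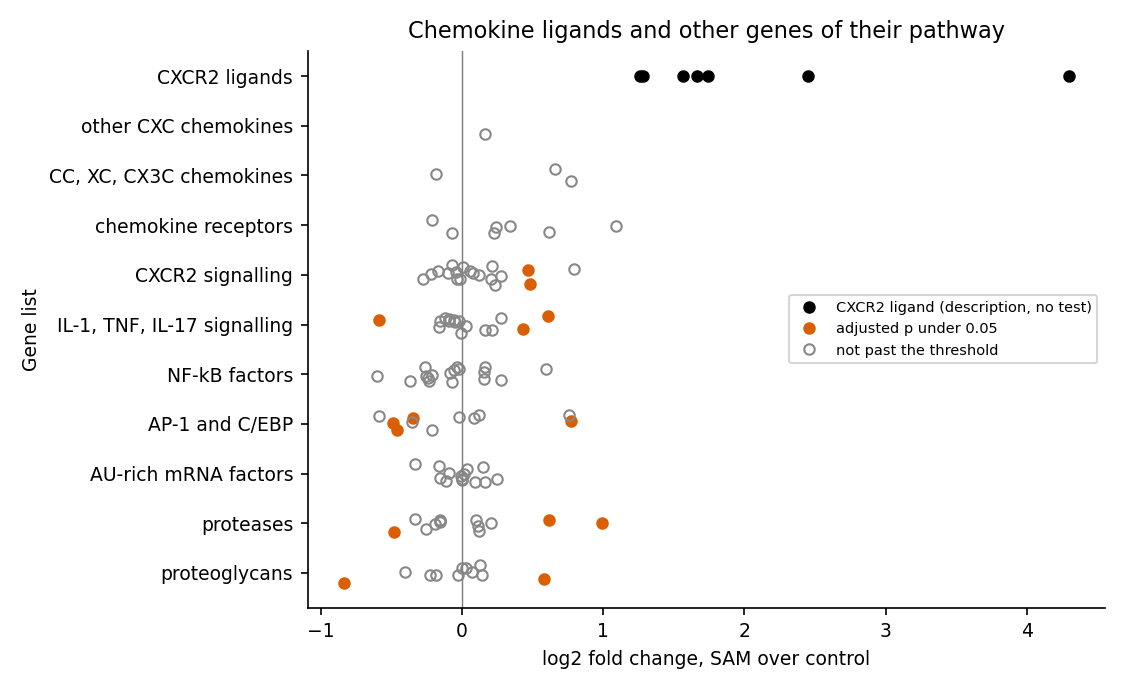
Log2 fold change of SAM over control for the tested genes of each list, 1 point per gene, with filled points for those called by edgeR and the 7 chemokine genes at the top as a description. The chemokine genes lie between 1.26 and 4.29, and the median of every other list lies between −0.21 and 0.66.

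The members' own profiles were compared over the 6 libraries on log2 CPM centred on each gene's mean. The mean profile of the 7 was 1.60, 0.90 and 0.47 in SAM 1, 2 and 3, against −1.14, −0.78 and −1.04 in control 1, 2 and 3. For the distances that follow, 0.25 CPM was added to each value before the log, also in the mean profile. CXCL6 and CXCL1 lay closest to that mean, with root mean square differences of 0.14 and 0.16. CXCL5, CXCL3, CXCL8 and CXCL2 followed at 0.25, 0.27, 0.35 and 0.39, and PPBP, with its larger difference, lay at 0.93.

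The 6 genes outside the 7 whose profile was most like this mean were IL1R2 (0.11), MUC13 (0.14), KRTAP2-3 (0.15), ESM1 (0.16), ADAMTS1 (0.17) and LPPR5 (0.18), and they were the same 6 with plain library totals. IL1R2, the decoy receptor of interleukin-1, had 17.7, 11.9 and 10.4 CPM in SAM 1, 2 and 3, against 3.003, 3.678 and 2.938 CPM in control 1, 2 and 3. It had SAM 1 highest and SAM 3 lowest with SAM, and control 2 highest among the controls. That order follows from its choice by profile and is no further likeness. ESM1 is a secreted proteoglycan, MUC13 a membrane mucin and ADAMTS1 a secreted metalloprotease, and all lie on other chromosomes than the chemokine cluster. The likeness is over 6 libraries that share depth and group, and says nothing of shared control.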

How the data were processed

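Total RNA of PC-3 cells was sequenced as 3 SAM and 3 control libraries. The authors deposited 1 table with the counts of each Ensembl gene, 1 table of normalised signal values (the same counts divided by 1 size factor per library), and a transcript length per gene. The signal values served for 1 alternative fit, and the lengths for 1 comparison of levels. Without giving roles, the submitters' processing notes list HTSeq 0.6.1, STAR 2.4, DESeq2 1.8, SAMtools 0.1.19, CASAVA 1.8.2 and FastQC 0.10.0, and the builds hg19 and mm10. The gene coordinates of the table lay on GRCh38 by comparison with GENCODE release 44 (99.9% of 51488 shared identifiers overlapped), and coordinates here are of that build. No source at hand says how reads in several genes, or on either strand, were counted. This bears on CXCL1, CXCL2 and CXCL3, and on CXCL5 and CXCL6, which other genes overlap.

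The counts were fitted with the quasi-likelihood test of edgeR 4.0.16 (R 4.3.3) with group as the only term, TMM scaling and the filter filterByExpr. The 15312 genes that passed held 99.9% of the counts. P-values were adjusted by Benjamini-Hochberg over these genes, and a gene was called at an adjusted p under 0.05. The SE of a log2 fold change is its size over the square root of the F value. Rows without a gene name held 0.468 to 0.619% of the counts. No 2 libraries of a group agreed within counting noise (chi-square over degrees of freedom at least 4.57).

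The 7 genes and all gene lists were chosen with earlier results of these data known. Named beside the 7 were CXCR1, CXCR2, ACKR1, up to 4 called genes of each list with the smallest p (or, without a call, up to 2 with the highest mean CPM), all tested neighbours within 500 kb and the 6 genes with the closest profile. The marker genes, PF4, CCL26, TNFAIP3, TAB2 and the genes with a promoter match are named outside that rule, after their values were seen. Promoters were searched in Python 3.11.15, with alignment by Biopython 1.88. Alternatives were other scalings, no filter, DESeq2 1.42.0, limma 3.58.1 (voom, and a trend fit of the signal values, log2-transformed after adding 1), a replicate block, leaving out libraries and, added after the data were seen, a GC and length trend removed from each library.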

Additional observations from a re-analysis of the deposited data

How the results depend on the processing

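All 7 chemokine genes had a positive log2 fold change in every setting run. With all libraries in the fit they ranged from 1.18 to 1.63 for CXCL2, 1.20 to 1.28 for CXCL8, 1.42 to 1.63 for CXCL3, 1.57 to 1.68 for CXCL1, 1.68 to 1.76 for CXCL6, 2.32 to 2.46 for CXCL5 and 4.05 to 4.31 for PPBP. The 1.63 given for CXCL2 and CXCL3 is the value of the summed counts of CXCL1, CXCL2 and CXCL3, and belongs to neither gene alone. Counted alone, CXCL2 reached at most 1.35, in the limma trend fit. CXCL3 alone had 1.58 with no filter on low counts. With 1 library left out the widest changes were in PPBP (3.71 to 4.56), CXCL2 (0.97 to 1.55), CXCL3 (1.11 to 1.86) and CXCL8 (0.91 to 1.48). The threshold applied to all genes was passed by 7 of the 7 in every other setting and by 4 to 7 with 1 library left out. This describes the fits and is no test of the 7, which were chosen on these libraries. The number was 5 without SAM 1 (CXCL2 and CXCL3 lost), 5 without control 2 (the same pair), and 4 without control 1 or control 3 (CXCL8 lost too). Fewer samples were then fitted.

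With 1 library left out, the genes called over the whole table ranged from 61 to 1661 higher and from 78 to 1572 lower, against 795 and 803 with all libraries. The lowest counts were without control 3. Over the lists, the ranges were 0 to 4 higher and 0 to 1 lower for CXCR2 signalling, 0 to 3 higher and 0 to 2 lower for interleukin-1 and related signalling, 1 to 2 higher and 0 to 4 lower for AP-1 and C/EBP factors, 1 to 2 higher and 0 to 3 lower for proteases, 0 to 1 higher and 0 to 2 lower for proteoglycans, 0 to 1 higher for CC, XC and CX3C chemokines, 0 to 1 in either direction for NF-kB genes and 0 to 1 in either direction for the neighbouring genes.

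Without a filter on low counts, 1402 genes were called higher and 1341 lower, with 2 CC, XC and CX3C chemokines and 1 receptor higher, 1 NF-kB gene higher and 2 lower, 2 proteoglycans lower, and 1 neighbouring gene higher and 1 lower. With upper-quartile scaling or library totals 1 neighbouring gene was called lower, as by DESeq2, which also called 1 NF-kB gene higher and 1 lower. Limma-voom called 1 NF-kB gene lower, and limma with a trend called 0 proteases lower. Without control 1 and SAM 2 together, 446 genes were called higher and 508 lower, with 1 CC, XC and CX3C chemokine higher, 0 CXCR2 signalling genes higher, 1 interleukin-1 signalling gene higher and 2 proteoglycans lower. ARRB2, RGS2, IRAK1 and JUNB were then not called. With the GC and length trend removed, 1669 genes were called higher and 1327 lower, with 5 CXCR2 signalling genes higher, 1 NF-kB gene higher and 1 lower, 2 proteases lower, and 1 neighbouring gene higher and 2 lower. The cause of these changes was not tested.

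Over all genes the libraries did not correlate by replicate number, and the labels do not say whether the numbers pair cultures. Deviations from the group means of libraries with the same number correlated at −0.184, −0.432 and 0.145 over genes, so not every library correlated best with its own number. The highest correlation was 0.487, between SAM 2 and control 1, the libraries that stood apart by CTD-2328D6.1. What these libraries share was not tested. With the replicate number as a block, 440 genes were called higher, 1 CXCR2 signalling gene and 1 interleukin-1 signalling gene higher and 0 proteases lower and 2 AP-1 and C/EBP factors lower, and RGS2, IRAK1, ADAM17 and JUNB were not called. With that block the SE of each of the 7 was smaller, for PPBP 0.27 against 0.43 without it. The log2 fold changes of the 7 were smaller too, for PPBP 4.06 against 4.29. The CPM of PPBP in control rest on 6 to 16 counts, the thinnest base among the 7.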
